A study of Mus musculus with 20 samples.

Results

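Hepatokines are proteins that the liver secretes and that act on other tissues or on lipoproteins in the blood. The 9 genes described here, Fgf21, Angptl4, Angptl8, Gdf15, Inhbe, Fst, Ahsg, Fetub and Tsku, were chosen by their symbols among the 22298 gene entries of the liver count tables, and all 9 passed the filter on low counts that left 12342 genes for testing. Each symbol was found once. The level of each gene is given as CPM, the count relative to the size of its library, scaled between libraries by the trimmed mean of M-values (TMM), and levels are compared between genes only in FPKM, which divides by transcript length.

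The libraries are poly(A)-selected bulk liver RNA of 20 mice, all male and all of the Lepr db/db genotype, in which loss of leptin signalling leads to obesity and diabetes. An AAV8 vector, a virus that reaches mainly hepatocytes from the blood, was injected into the tail vein at 5 weeks of age. It carried a non-targeting shRNA in the Vec and Vec+BBR groups and a 4-in-1 shRNA against Pparg in the shRNA and shRNA+BBR groups. The Vec+BBR and shRNA+BBR mice received benzbromarone (BBR), a urate-lowering drug, by gavage at 25 mg per kg once daily for 4 weeks, while the Vec and shRNA mice received the sodium carboxymethyl cellulose vehicle. Tissue was taken after 6 h of fasting, each group held 5 mice, and no library of an uninjected or lean mouse was used here. The labels name only control, benzbromarone and PPAR knockdown. The study compared these groups to ask whether the response of the fatty liver to BBR depends on PPARγ, the lipid-storage nuclear receptor that Pparg encodes.

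In background terms, the 9 proteins fall into a few systems. Ahsg (fetuin-A) and Fetub (fetuin-B) are plasma proteins with cystatin-type domains, made in bulk by hepatocytes, and fetuin-A is known as an inhibitor of the insulin receptor and of mineral deposition. Angptl4 and Angptl8 belong to the angiopoietin-like family, which restrains lipoprotein lipase, the enzyme that releases fatty acids from circulating triglyceride. Angptl4 is a classic PPAR target gene, and Angptl8 is induced by feeding and insulin. Fgf21 is the fasting hormone that signals through β-Klotho and FGF receptors, and Gdf15 is a stress hormone that acts on the hindbrain. Both are induced by the integrated stress response, in which ATF4 and C/EBP-type factors drive transcription. Inhbe encodes the βE subunit of activins, made almost only in liver, and Fst encodes follistatin, which binds and neutralizes activins. Tsku encodes tsukushi, a secreted leucine-rich repeat protein linked to cholesterol and energy balance.

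Promoter sequence from RefSeq on GRCm38.p6 (250 bases before to 50 after each start) was matched by symbol for 7 of the 9 genes, all but Angptl4 and Fst. The upstream sequences of Fgf21, Angptl8 and Inhbe are shown because these genes share 8 letters, TTGCATCA or its complement TGATGCAA, the core of a composite element for C/EBP and ATF factors. Those letters are in capitals. The letters were picked after the sequences were viewed. For Inhbe the window lies inside an exon of the GENCODE M21 model and only 30 bases are given. All sequences run 5′ to 3′ on the strand of the gene.
Fgf21 (chr7:45615491-45615740, minus strand): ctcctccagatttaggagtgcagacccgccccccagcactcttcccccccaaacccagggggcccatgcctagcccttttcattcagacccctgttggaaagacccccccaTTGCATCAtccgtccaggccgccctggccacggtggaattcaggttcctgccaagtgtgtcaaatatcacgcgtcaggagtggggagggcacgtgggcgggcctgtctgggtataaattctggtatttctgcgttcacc
Angptl8 (chr9:21835260-21835509, plus strand): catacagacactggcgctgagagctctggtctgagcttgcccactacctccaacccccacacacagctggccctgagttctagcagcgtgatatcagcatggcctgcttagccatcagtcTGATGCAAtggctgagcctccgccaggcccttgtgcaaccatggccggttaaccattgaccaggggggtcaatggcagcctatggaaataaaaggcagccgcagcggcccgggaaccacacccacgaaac
Inhbe (chr10:127352011-127352040, minus strand): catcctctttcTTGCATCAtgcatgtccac
The capitals begin at position -139 from the start site in Fgf21, at -130 in Angptl8, where they read on the other strand, and at -181 in Inhbe. Of all 32851 promoters of the same length, 0.895% hold these letters on either strand. They were not found in the windows of Gdf15, Ahsg, Fetub or Tsku. The E-box letters CACGTG occurred in the windows of Fgf21, at -50, and Gdf15, at -83, and in 7.15% of all promoters. The TATA letters TATAAA occurred on the gene's strand in Fgf21, at -28, and Fetub, at -31, and in 13.6% of all promoters on either strand. The PPAR half-site repeat DR1, searched as a direct repeat of AGGTCA spaced by 1 free letter on either strand, was found in none of the 7 genes and in 0.0396% of all promoters. A match describes letters in this window and does not show that a factor binds there.

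The fetuin genes lie next to each other on the plus strand of chromosome 16, and their upstream sequences are shown because both genes read lower in the livers given BBR after the control vector. They carry no capitals, since none of the motifs above falls in the printed stretch.
Ahsg (chr16:22891765-22892014, plus strand): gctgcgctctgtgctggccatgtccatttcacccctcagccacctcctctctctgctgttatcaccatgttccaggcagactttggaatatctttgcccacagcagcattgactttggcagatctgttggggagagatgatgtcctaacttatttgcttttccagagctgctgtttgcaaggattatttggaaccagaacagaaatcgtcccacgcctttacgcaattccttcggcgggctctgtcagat
Fetub (chr16:22918132-22918333, plus strand): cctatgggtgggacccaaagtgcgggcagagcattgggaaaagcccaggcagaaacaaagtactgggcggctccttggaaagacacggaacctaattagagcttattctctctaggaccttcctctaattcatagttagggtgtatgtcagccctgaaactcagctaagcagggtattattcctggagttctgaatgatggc
The stretch for Fetub ends at position -49 from the RefSeq start, just before the first annotated exon of GENCODE M21. By that annotation of GRCm38, Ahsg spans chr16:22891277-22899449 and Fetub chr16:22918334-22939778, with 18885 bases between them. The printed Ahsg stretch thus lies inside the annotated span of the gene, since other annotated transcripts start upstream of the RefSeq start.

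Libraries held between 17432904 and 25024099 counts, so that 3 counts, the floor used here, equal 0.12 to 0.172 CPM. The target of the shRNA was checked first. Pparg read 16.4, 20.1, 35.9, 19.4 and 32.1 CPM in the 5 Vec livers, 34.8, 29.8, 28, 28.1 and 38.3 in Vec+BBR, 7.31, 6.53, 5.96, 3.24 and 5.63 in shRNA, and 11.4, 9.99, 21.8, 18.9 and 7.19 in shRNA+BBR. Every shRNA liver was below every Vec liver (log2 fold change -2.12 ± 0.28 SE, adjusted p = 4.47e-05 by edgeR's quasi-likelihood test), and every shRNA+BBR liver was below every Vec+BBR liver (-1.20 ± 0.26, adjusted p = 0.00843). Pparg was also higher in shRNA+BBR than in shRNA (1.28 ± 0.28, adjusted p = 0.00773), so the knockdown livers given BBR held more of the target than those given vehicle. The 5 Vec livers were spread along the first principal component, at -15.8, -23.5, 19.8, -34.2 and 2.2 for replicates 1 to 5. Replicate 3 was at the end of this spread nearest to the Vec+BBR livers, which lay at 26 to 33.4. The called differences of the 9 genes from Vec are therefore also given without it. The 5 shRNA+BBR livers were also spread on this component, at 2.93, 10.6, 25, 22.8 and -8.45 for replicates 1 to 5. The 7 hepatocyte markers, albumin among them, summed to at least 86146 CPM in every liver, and of the skeletal muscle and exocrine pancreas lists none and 1 of 5 markers passed the filter. The skeletal muscle markers still summed to 12.7 CPM in the highest Vec+BBR liver, where the group median was 0.357. Their highest sums were 0.471 in Vec, 0.644 in shRNA and 0.776 in shRNA+BBR. In bulk RNA, fewer hepatocytes and less RNA per hepatocyte cannot be told apart.

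By median FPKM over the 20 livers, Ahsg came first at 2882 (rank 24 of the 12342 genes tested), followed by Fetub at 227, Angptl4 at 76.5, Tsku at 57.2, Angptl8 at 28.8, Inhbe at 17.5, Gdf15 at 4.08, Fgf21 at 3.64 and Fst at 2.67. The ranges over livers did not overlap between Ahsg and Fetub, Fetub and Angptl4, or Inhbe and Gdf15. The ranges of all other neighbours in this order overlapped. Fgf21, Gdf15 and Fst were thus near the middle of the genes tested, at ranks 6348.5, 6042 and 7101, and rested on 31 to 320 counts per liver. The coefficient of variation over the Vec livers was 58.7% for Fgf21 and 10.7% for Angptl4.

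**Figure D1:**
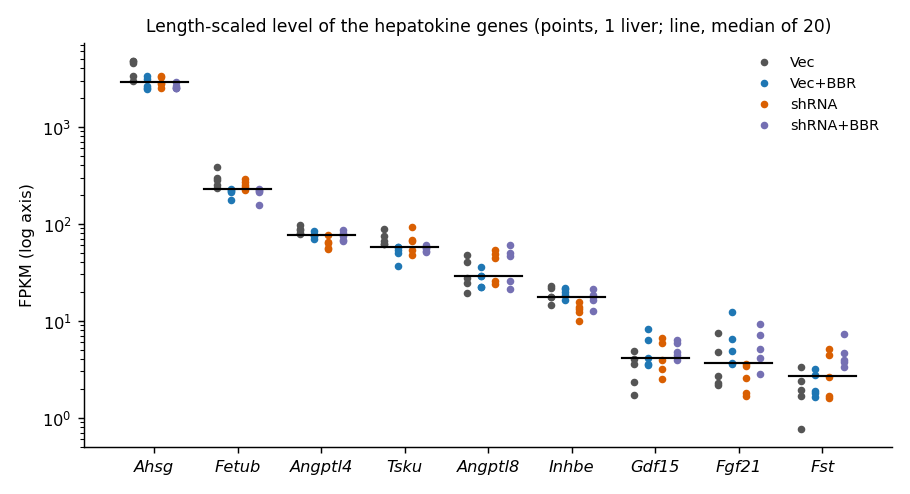
Length-scaled level (FPKM, log axis) of the 9 genes in each of 20 livers, coloured by group, with a line at the median of all livers. Ahsg lies at a median of 2882 FPKM, above all other genes in every liver, and Gdf15, Fgf21 and Fst form a low group at medians of 2.67 to 4.08 FPKM.

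With the control vector, BBR was followed by lower levels of 4 of the 9 genes and higher levels of none. Ahsg, Fetub and Tsku fell in a way that separated all 5 treated from all 5 vehicle livers, and Angptl4 fell by less. Among all genes tested, 15.5% had an adjusted p under 0.05 in this comparison, as these 4 genes did. The share of all genes whose groups separate without overlap was not computed for any comparison. The median log2 fold change of the 9 genes was -0.30 beside -0.01 for all genes. The 9 genes were chosen with earlier results of these data known. The shares and medians here therefore describe them and do not test them as a set. In the shRNA against Vec comparison, 3 genes were lower and none was higher, namely Angptl4, Inhbe and Ahsg, where 13.2% of all genes passed. Both of these comparisons use the same 5 Vec livers, as the later pairs share their BBR or shRNA livers. When the knockdown and control vectors were compared under BBR, 1 gene was called, Fst, which was higher, and 8.13% of all genes passed. In shRNA+BBR against shRNA, 1 gene was called, Inhbe, which was higher, and 15.7% of all genes passed. Angptl8, Fgf21 and Gdf15 passed the threshold in none of the comparisons.

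**Figure D2:**
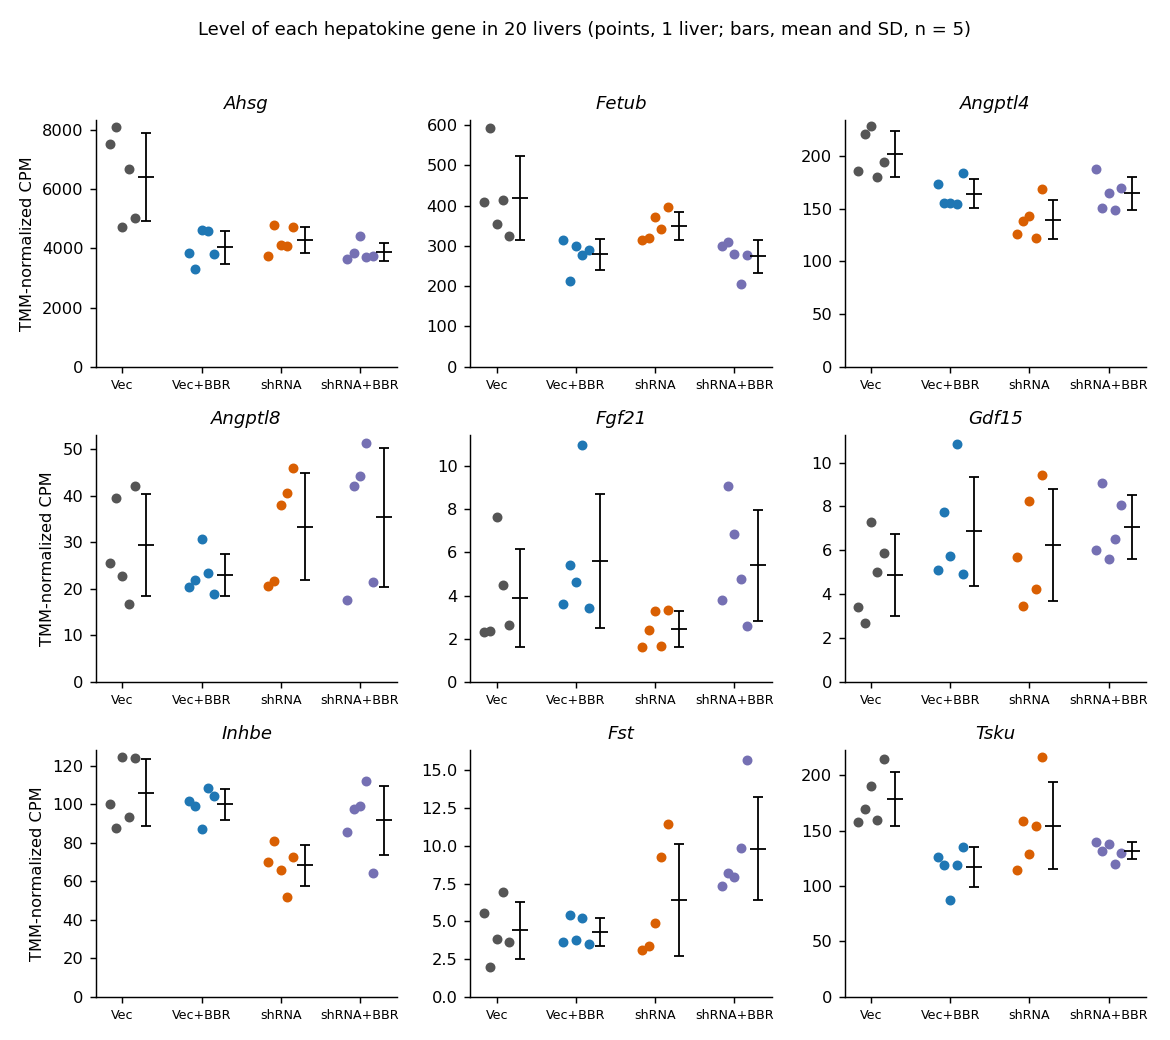
TMM-normalized CPM of each gene on a linear axis from 0, with 1 point for each liver and the mean and SD of the 5 livers of a group beside the points. Ahsg, Fetub and Tsku lie higher in all 5 Vec livers than in any Vec+BBR liver, whereas Angptl8, Fgf21 and Gdf15 overlap between the groups of each comparison tested.

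Ahsg read 7534, 8095, 4735, 6695 and 5009 CPM in the Vec livers, 3837, 3296, 4611, 4584 and 3822 in Vec+BBR, 3752, 4801, 4098, 4089 and 4705 in shRNA, and 3656, 3828, 4415, 3712 and 3734 in shRNA+BBR. The Vec livers were the high ones, with replicates 3 and 5 the lowest of them, and the other 3 groups covered nearly the same range. The mean was 6414 ± 1496 (SD, n = 5) in Vec and 4030 ± 562 in Vec+BBR, without overlap (log2 fold change -0.67 ± 0.14 SE, adjusted p = 0.00296). With the knockdown the mean was 4289 ± 447, and 1 shRNA liver, at 4801, was above the lowest Vec liver (-0.58 ± 0.14, adjusted p = 0.00815). Without Vec replicate 3 these differences were -0.77 (adjusted p = 0.000457) and -0.67 (adjusted p = 0.00246). On the knockdown background BBR left Ahsg at 3869 ± 311, and the difference of -0.15 from shRNA, with a 95% interval of -0.44 to 0.14, did not pass. The difference between the 2 BBR effects was 0.52 ± 0.20 with an adjusted p of 0.175.

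Fetub read 408, 593, 355, 414 and 324 CPM in Vec, 315, 212, 299, 276 and 290 in Vec+BBR, 316, 318, 372, 341 and 397 in shRNA, and 299, 308, 280, 205 and 277 in shRNA+BBR. Each group given BBR lay below its vehicle group without overlap. The fall with BBR passed the threshold with the control vector (-0.59 ± 0.15, adjusted p = 0.00943, and -0.65 with adjusted p = 0.0047 without Vec replicate 3), whereas that on the knockdown background did not (-0.35 ± 0.14, adjusted p = 0.0982). The difference between them was 0.24 ± 0.20 (adjusted p = 0.535), so the BBR effects on Fetub were not shown to differ between vectors. Unlike for Ahsg, shRNA against Vec did not pass for Fetub (-0.26, 95% interval -0.56 to 0.04).

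The fetuin genes have 3 relatives with cystatin-type domains that are made in liver, Hrg, Kng1 and Kng2, and Hrg is the next gene after Fetub, 11294 bases away. All 3 were lower in Vec+BBR than in Vec, with a median log2 fold change of -0.56. The mean of Hrg, histidine-rich glycoprotein, was 1830 CPM in Vec and 996 in Vec+BBR (-0.88 ± 0.16, adjusted p = 0.00115), and it also fell on the knockdown background (-0.54 ± 0.16, adjusted p = 0.028). Kng1 and Kng2, which encode kininogens, fell by 0.56 and by 0.39 on the log2 scale with the control vector. None of the 3 passed in shRNA against Vec. Dnajb11, the gene on the other side of Ahsg, which encodes a chaperone of the endoplasmic reticulum, showed another pattern, at -0.11 with BBR (adjusted p = 0.51) and -0.72 with the knockdown (adjusted p = 9.43e-05).

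Markers of hepatocytes and of other liver cells also differed with BBR. Among all genes tested, 7.58% were called higher and 7.88% lower in Vec+BBR against Vec. These shares were 5.28% and 7.91% in shRNA against Vec, and 8.37% and 7.28% in shRNA+BBR against shRNA. Of the 7 hepatocyte markers, 4 were lower in Vec+BBR than in Vec and none was higher, and their summed level was 118312 to 148402 CPM in Vec, 86146 to 121118 in Vec+BBR, 111893 to 128976 in shRNA and 103244 to 119894 in shRNA+BBR. In the same comparison 3 of 7 stellate cell markers and 4 of 7 endothelial cell markers were higher, and none of either was lower. The summed stellate markers rose from 151 to 282 CPM in Vec to 301 to 336 in Vec+BBR, and the endothelial sum was 86.8 to 115 in Vec and 109 to 150 in Vec+BBR. In shRNA against Vec, where Ahsg, Angptl4 and Inhbe were called, 3 of 7 endothelial markers were higher, 1 of 7 stellate markers was lower and no hepatocyte marker passed. In shRNA+BBR against shRNA, where Inhbe was called, 4 of 7 stellate markers were higher and 2 of 7 hepatocyte markers were lower. Of the 7 endothelial markers, 1 was higher and 2 were lower there. Of 7 Kupffer cell and macrophage markers, 1 was higher and 1 was lower in Vec+BBR against Vec. In that list 1 was lower in shRNA against Vec and 1 was higher in shRNA+BBR against shRNA. Of 5 cholangiocyte markers tested, 1 was higher in Vec+BBR against Vec and 1 in shRNA+BBR against shRNA. Of 2 adipocyte markers tested, 1 was higher in Vec+BBR against Vec, 1 was lower in shRNA against Vec and 2 were higher in shRNA+BBR against shRNA. Of 2 T and B cell markers tested, 1 was lower in Vec+BBR against Vec. The part of these marker levels in the results for the 9 genes was not tested. The antisense gene Gm30505, which the annotation places over Ahsg, was not analysed here. Over the 20 livers, the genes whose log2 CPM followed Ahsg most closely were Igfbp4 (Pearson's r = 0.91), Mpnd (0.91) and Npc1 (0.88), and those closest to Fetub were Rdh7 (0.93), Apoh (0.93) and Serpina1b (0.92). Ahsg and Fetub themselves correlated at 0.80, and at 0.63 after group means were removed. These values are descriptions over livers that share groups and scaling.

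**Figure D3:**
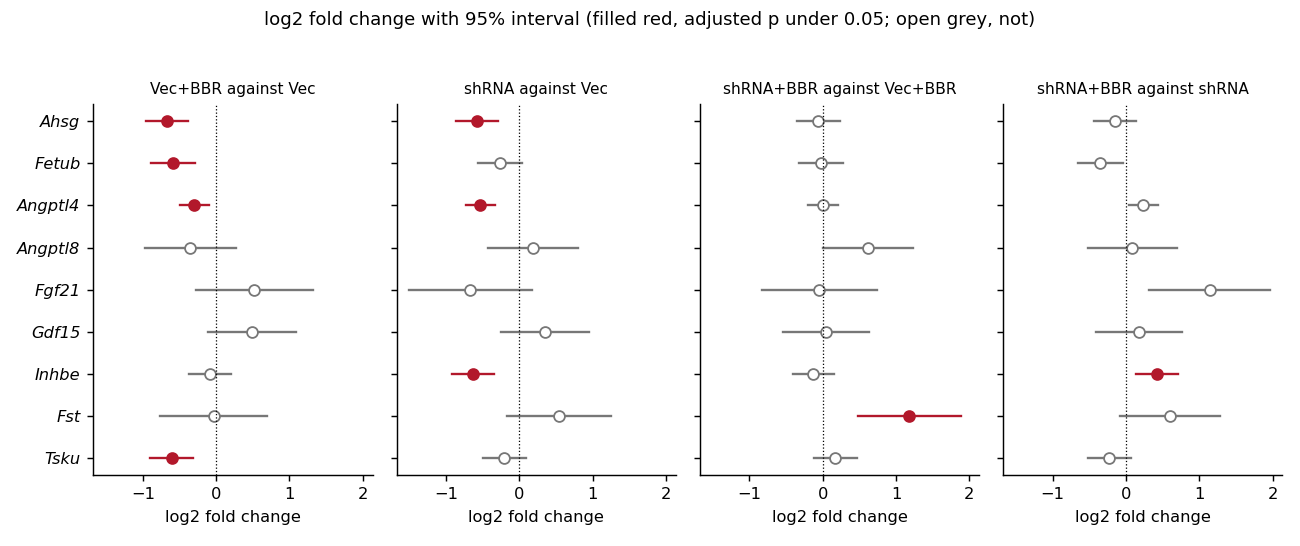
Log2 fold change with its 95% interval for the 9 genes in 4 comparisons, with filled red points where the adjusted p was under 0.05 and open grey points elsewhere. The called genes lie to the left of 0 in both comparisons with Vec, at -0.67 to -0.30, while the calls between the other groups, Fst at 1.18 and Inhbe at 0.43, lie to the right.

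Angptl4, the lipoprotein lipase inhibitor, was highest in Vec and lowest in shRNA. It read 185, 221, 229, 180 and 195 CPM in Vec, 174, 155, 155, 154 and 184 in Vec+BBR, 126, 139, 143, 122 and 168 in shRNA, and 187, 151, 165, 149 and 170 in shRNA+BBR. All shRNA livers were below all Vec livers (-0.53 ± 0.10 SE, adjusted p = 0.001, and -0.48 with adjusted p = 0.00348 without Vec replicate 3). BBR with the control vector gave a smaller difference, with 1 Vec+BBR liver, at 184, above the lowest Vec liver (-0.30 ± 0.10, adjusted p = 0.0423). That call was lost without Vec replicate 3 (-0.26, adjusted p = 0.0769) and without any 1 of 4 other livers, where the adjusted p was at most 0.104. On the knockdown background the value with BBR was 0.24 ± 0.10 higher (adjusted p = 0.0956). The difference of the 2 BBR effects was 0.53 ± 0.14, with an adjusted p of 0.0942 by edgeR and 0.0185 by DESeq2, in a comparison where 0.146% of all genes passed in edgeR. No gene of the 9 passed there in edgeR, and 3 had an unadjusted p under 0.05 (Angptl4, Ahsg and Inhbe), as did 18.5% of all genes. DESeq2, which called 338 genes in this comparison, called 1 of the 9, Angptl4. Under BBR, Angptl4 was at 164 ± 13.7 with the control vector and at 164 ± 15.6 with the knockdown, and the 95% interval of the log2 fold change was -0.20 to 0.20.

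Angptl4 lies on the minus strand of chromosome 17 at chr17:33773750-33781830, 214 kb from H2-K1, a class I histocompatibility gene whose level split the livers into 8 at 74.4 to 220 CPM and 12 at 553 to 1299. The 8 low livers were 2 Vec, 1 Vec+BBR, 2 shRNA and 3 shRNA+BBR. With the H2-K1 level as a covariate the differences of Angptl4 were -0.32 (adjusted p = 0.0219) for BBR with the control vector and -0.51 (adjusted p = 0.00108) for the knockdown. Neighbouring Rab11b and Kank3 passed in none of the 4 comparisons of groups. Over livers the level of Angptl4 was most like those of Akr1a1 (r = 0.90), Eci2 (0.88), a fatty acid oxidation enzyme, and Mpst (0.87).

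Angptl8 read 25.6, 39.6, 22.8, 16.8 and 42.2 CPM in Vec, 20.3, 21.9, 30.6, 23.3 and 19 in Vec+BBR, 20.6, 21.7, 38, 40.7 and 46 in shRNA, and 17.7, 42.2, 44.3, 51.3 and 21.4 in shRNA+BBR. Livers near 20 and livers near 40 occurred within Vec, shRNA and shRNA+BBR, while Vec+BBR had no liver above 30.6. None of the comparisons passed, and the largest difference, shRNA+BBR against Vec+BBR, was 0.62 with a 95% interval of 0.01 to 1.23 and an adjusted p of 0.197. Angptl8 lies on the plus strand at chr9:21835510-21837347 inside the span of Dock6 on the opposite strand. The library kit is not stated to mark strand, so reads of both genes cannot be told apart where they overlap, and Dock6, at 8.26 CPM on average, passed in none of the comparisons. Adjoining Kank2, 36766 bases away, was lower with the knockdown under vehicle (-0.38, adjusted p = 0.0326) and under BBR (-0.38, adjusted p = 0.0477). Rab3d, on the other side, passed in none. The genes most like Angptl8 over livers were Arrdc4 (r = 0.80), Rbm26 (0.80) and Bhlhe40 (0.79).

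Among 15 other genes of the lipoprotein lipase system, 1 was higher and 3 were lower with BBR after the control vector. Lpl itself rose from 5.46 to 9.53 CPM (0.79 ± 0.25, adjusted p = 0.0359). Lipc, hepatic lipase, fell by 0.65 (adjusted p = 0.00133), Apoa5, an activator of lipolysis, by 0.37 (adjusted p = 0.0327), and Lmf1, which matures lipases, by 0.37 (adjusted p = 0.00877). With the knockdown alone, 1 was higher, Gpihbp1, the capillary anchor of the lipase, at 0.49 (adjusted p = 0.0122), and 2 were lower, Lmf1 and Apoe. Under BBR none of the 15 differed between vectors, and on the knockdown background 1 was lower with BBR, Lipc, at -0.57 (adjusted p = 0.00625). Of all genes tested, 15.5% were called in Vec+BBR against Vec and 13.2% in shRNA against Vec. The shares were 8.13% between vectors under BBR and 15.7% with BBR on the knockdown background. The list was not tested as a set.

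Fgf21, on the minus strand at chr7:45613886-45615490, read 2.3, 2.38, 7.65, 4.51 and 2.64 CPM in Vec, 3.59, 5.42, 4.61, 11 and 3.44 in Vec+BBR, 1.6, 2.4, 3.26, 1.66 and 3.33 in shRNA, and 3.78, 9.07, 6.87, 4.75 and 2.59 in shRNA+BBR. The shRNA livers were the lowest as a group and no shRNA liver exceeded 3.33, yet the groups overlapped in each comparison. The difference of shRNA+BBR from shRNA was 1.14 ± 0.39 with an adjusted p of 0.054, just outside the threshold. It passed under 6 of 20 alternatives, among them DESeq2 (adjusted p = 0.0213) and a fit to these 2 groups only (0.0292). With the mitochondrial share as a covariate it was 0.66 (adjusted p = 0.458). With the control vector the BBR difference was 0.52 with a 95% interval of -0.28 to 1.32, and the difference of the 2 BBR effects was 0.62 ± 0.55 (adjusted p = 0.552). Vec replicate 3 held the highest Fgf21 of its group. Without it the BBR difference with the control vector was 0.91 (adjusted p = 0.101) and the difference of the 2 BBR effects was 0.24 (adjusted p = 0.837). Bcat2, an adjoining gene 24175 bases away, was lower in Vec+BBR against Vec (-0.60, adjusted p = 0.0446) and passed in no other comparison. Fut1, on the other side, averaged 0.0828 CPM and was not tested.

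Gdf15, at chr8:70629393-70632456, read 3.41, 2.7, 7.31, 5.02 and 5.89 CPM in Vec, 5.09, 7.75, 5.76, 10.8 and 4.9 in Vec+BBR, 5.71, 3.46, 8.25, 4.25 and 9.42 in shRNA, and 6.01, 9.07, 5.59, 6.53 and 8.07 in shRNA+BBR. All groups overlapped, and the largest difference, BBR with the control vector, was 0.49 with a 95% interval of -0.11 to 1.09 (adjusted p = 0.269). Vec+BBR replicate 4 was highest in its group for both Fgf21 and Gdf15, and so were Vec replicate 3 and shRNA+BBR replicate 2 in theirs. Over the 20 livers Fgf21 and Gdf15 correlated at 0.60, and at 0.64 without group means. Of the 36 pairs among the 9 genes the latter was the highest value, ahead of Ahsg with Fetub at 0.63 and Angptl4 with Tsku at 0.59. Pgpep1, 13979 bases from Gdf15, was lower than in Vec with BBR (-0.60, adjusted p = 0.00062) and with the knockdown (-0.44, adjusted p = 0.00486). Lrrc25, on the other side of Gdf15, passed in none of the comparisons.

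Of 15 tested genes of the integrated stress response, 1 was higher and 3 were lower with BBR after the control vector, and the median was -0.10. Atf4, the transcription factor at its centre, fell by 0.32 (adjusted p = 0.0376), Atf5 by 0.73 (adjusted p = 0.00238) and Shmt2, a mitochondrial one-carbon enzyme, by 0.24 (adjusted p = 0.0311), whereas Nupr1, a stress-induced nuclear protein, rose by 1.37 from 0.649 to 1.69 CPM (adjusted p = 0.00232). In shRNA+BBR against shRNA, Nupr1 again rose, by 0.98, and Sesn2 fell by 0.58. With the knockdown alone Ddit4 was higher by 0.73 and Shmt2 lower, and under BBR Ddit4 was higher with the knockdown by 0.91. Trib3 and Ddit3, which ATF4 induces, passed in none of the comparisons. Among all genes the shares that passed were 15.5% in Vec+BBR against Vec and 13.2% in shRNA against Vec. They were 8.13% in shRNA+BBR against Vec+BBR and 15.7% in shRNA+BBR against shRNA. Among the genes of β-Klotho and the FGF receptors, Klb, the β-Klotho co-receptor, averaged 26.7 CPM in Vec and 19.3 in Vec+BBR (-0.47, adjusted p = 0.0517). Klb fell by 0.61 with BBR on the knockdown background (adjusted p = 0.0181), as did Fgfr2, by 0.62 (adjusted p = 0.0352). Fgfr4 was lower than in Vec with BBR (-0.49) and with the knockdown (-0.44). Fgfr1 and Fgfr3 passed in none of the comparisons, and Fgfr1 read 0.57 higher with BBR on the knockdown background (adjusted p = 0.0779).

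Inhbe, the activin βE gene, was lower with the knockdown and higher when BBR was given on that background. It read 100, 87.5, 124, 93 and 124 CPM in Vec, 101, 98.9, 87, 108 and 104 in Vec+BBR, 70, 81, 65.6, 51.6 and 72.4 in shRNA, and 85.3, 97.5, 98.8, 112 and 64.1 in shRNA+BBR. Every shRNA liver lay below every Vec liver (-0.64 ± 0.14 SE, adjusted p = 0.00424, and -0.57 with adjusted p = 0.0146 without Vec replicate 3). Of the shRNA+BBR livers, 4 lay above all shRNA livers and 1, replicate 5, lay among them (0.43 ± 0.14, adjusted p = 0.0414). This second call was lost under 12 of 20 alternatives, among them leaving out any 1 of 7 livers, where the adjusted p was at most 0.11. The share of counts from mitochondrial genes was 9.90% to 12.3% in shRNA and 10.2% to 16.2% in shRNA+BBR, and with that share as a covariate the difference was 0.31 (adjusted p = 0.311). With the control vector BBR gave -0.08, with a 95% interval of -0.37 to 0.20, and the difference of the BBR effects was 0.51 ± 0.19 (adjusted p = 0.183).

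Of all genes with a mean count of at least 50 outside the 9, Pparg was the one whose log2 CPM correlated most closely with Inhbe over the 20 livers (r = 0.88, and 0.81 after group means were removed), followed by Arsa and Rmdn3 at 0.87. The shRNA+BBR liver with the least Pparg, replicate 5 at 7.19 CPM, was also the one with the least Inhbe, and the shRNA liver with the least Pparg, replicate 4 at 3.24 CPM, had the lowest Inhbe of all livers. In Vec, replicates 3 and 5 were highest for both genes. In Vec+BBR, shRNA and shRNA+BBR, the liver with the most Pparg was not the one with the most Inhbe. In shRNA+BBR against Vec+BBR, the log2 fold change was -1.20 for Pparg but -0.13 for Inhbe (adjusted p = 0.604).

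**Figure D4:**
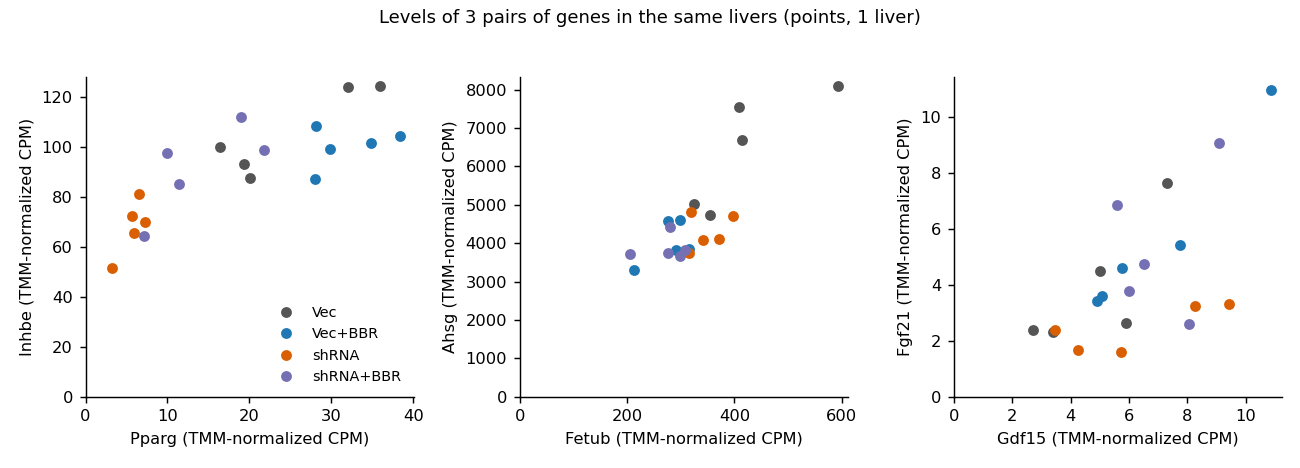
Levels of 3 pairs of genes in the same livers (TMM-normalized CPM, linear axes from 0), with 1 point for each liver coloured by group. Inhbe is lowest, at 51.6 CPM, in the liver with the least Pparg, but the liver with the most Pparg is not the one with the most Inhbe. The 3 highest Ahsg livers are the 3 Vec livers with the highest Fetub, and Fgf21 and Gdf15 share their highest liver.

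Inhbe lies on the minus strand at chr10:127348857-127354411, 1911 bases from Inhbc, which encodes the βC subunit of activins and is likewise made in liver. Inhbc averaged 34.3 CPM in Vec, 29.9 in Vec+BBR, 18.8 in shRNA and 25.9 in shRNA+BBR. It was lower in shRNA than in Vec (-0.87 ± 0.14, adjusted p = 0.000325) and higher in shRNA+BBR than in shRNA (0.46 ± 0.14, adjusted p = 0.0328), the same 2 comparisons and directions as Inhbe. Gli1, on the other side, averaged 0.0469 CPM and was not tested. Gm47200, an antisense gene that the annotation places over Inhbe, was not analysed here.

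Fst, at chr13:114452290-114458951 on the minus strand, read 5.56, 1.99, 3.83, 6.95 and 3.63 CPM in Vec, 3.63, 5.42, 3.76, 5.22 and 3.48 in Vec+BBR, 3.11, 3.35, 4.91, 9.24 and 11.4 in shRNA, and 7.32, 8.16, 7.96, 9.86 and 15.6 in shRNA+BBR. All shRNA+BBR livers were above all Vec+BBR livers (1.18 ± 0.34 SE, adjusted p = 0.0338). The call was lost under 8 of 20 alternatives, among them leaving out shRNA+BBR replicate 5, the highest liver (0.95, adjusted p = 0.0965), and any 1 of 5 other livers. In shRNA against Vec the difference was 0.54 with a 95% interval of -0.17 to 1.25, since 3 shRNA livers lay within the Vec range. BBR with the control vector gave -0.04 (95% interval -0.76 to 0.69), and on the knockdown background 0.60 (-0.08 to 1.29). The antisense gene Gm47040 over Fst was not analysed here. Mocs2, 359285 bases from Fst, was lower than in Vec with BBR (-0.56, adjusted p = 0.00448) and with the knockdown (-0.54, adjusted p = 0.00566). Ndufs4, on the other side of Fst, passed in none of the comparisons. The genes most like Fst over livers were Ints13 (r = 0.81), Rasgef1b (0.80) and Zbtb21 (0.80).

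Of 16 other activin-system genes tested, 2 were higher and 1 was lower with the knockdown alone. Inhba, the βA subunit, was higher by 1.00 at a low level of 0.79 CPM in Vec and 1.59 in shRNA (adjusted p = 0.0493), and Smad7, an inhibitor of the receptor signal, was higher by 0.81 (adjusted p = 0.0274). Both were also higher in shRNA+BBR than in Vec+BBR, Inhba by 1.37 (adjusted p = 0.012) and Smad7 by 0.83 (adjusted p = 0.0352), and no gene of the list was lower there. With BBR after the control vector 1 was higher, Fstl1, at 0.65 (adjusted p = 0.0393), and on the knockdown background Inhbc was higher and Acvr1b, a type I receptor, was lower by 0.47 (adjusted p = 0.0342). For comparison, 13.2% of all genes were called with the knockdown alone and 8.13% between vectors under BBR. With BBR the shares were 15.5% after the control vector and 15.7% on the knockdown background. These few calls describe single genes, and the list was not tested as a set.

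Tsku, on the minus strand at chr7:98350668-98361328, read 158, 170, 190, 159 and 215 CPM in Vec, 126, 119, 87.2, 119 and 135 in Vec+BBR, 114, 159, 129, 155 and 216 in shRNA, and 140, 132, 138, 120 and 130 in shRNA+BBR. The Vec and Vec+BBR livers did not overlap (-0.60 ± 0.14 SE, adjusted p = 0.00671, and -0.59 with adjusted p = 0.00973 without Vec replicate 3). The shRNA livers spread from 114 to 216 and spanned the Vec range, so that the knockdown difference was -0.21 with a 95% interval of -0.50 to 0.09. On that background BBR gave -0.23 (-0.52 to 0.06), with all shRNA+BBR livers between 120 and 140. The genes most like Tsku were Cxxc1 (r = 0.76), Smap2 (0.72) and Pde1a (0.72), the last pair at 0.31 and 0.36 once group means were removed.

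The lists of PPAR target genes were read beside these genes, since Angptl4 and Fgf21 are known targets. Of 9 tested PPARγ targets without Angptl4, 8 were higher with BBR after the control vector and none was lower, with a median of 1.69 on the log2 scale. Cidea, a lipid droplet protein, rose by 3.63 (adjusted p = 0.000755), Cidec by 2.29 (0.0186), Mogat1, a triglyceride synthesis enzyme, by 1.82 (0.00258) and Pltp by 1.79 (0.0031). In shRNA against Vec 3 of the 9 were lower, and in shRNA+BBR against shRNA 6 were higher. Under BBR 1 was lower with the knockdown, Pltp (-1.26, adjusted p = 0.0373), and 8 of the 9 had a negative log2 fold change (median -0.65). Angptl4 was lower in Vec+BBR and in shRNA than in Vec, and its difference was 0.24 (adjusted p = 0.0956) in shRNA+BBR against shRNA. Of 14 PPARα targets, 3 were higher with BBR after the control vector (Vnn1 by 0.81, Ehhadh by 0.55 and Acadm by 0.28), 5 were lower with the knockdown and 7 were higher with BBR on the knockdown background. Under BBR 1 of them was higher with the knockdown, Acot1, and 2 were lower, Vnn1 and Acadm. All genes tested were called higher in 7.58% of cases in Vec+BBR against Vec and in 8.37% in shRNA+BBR against shRNA. They were called lower in 7.91% in shRNA against Vec, and 8.13% were called in either direction between vectors under BBR.

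Of 19 further secreted liver factors, 2 were higher and 6 were lower with BBR after the control vector, with a median of -0.15. Igfbp2, an IGF-binding protein, fell from 45.5 to 6.44 CPM (-2.81 ± 0.48, adjusted p = 0.00087), Hamp, the iron hormone hepcidin, from 483 to 208 (-1.21, adjusted p = 0.0169), and Lect2, a hepatokine linked to insulin resistance, from 175 to 83.5 (-1.07, adjusted p = 0.000557). Gpnmb, a glycoprotein shed by liver and macrophages, rose from 5.77 to 22.6 (1.96, adjusted p = 0.00261). With the knockdown alone 1 was higher, Mst1, and 2 were lower, Gpnmb at -1.37 (adjusted p = 0.0441) and Lect2 at -0.57 (adjusted p = 0.0304). Of all genes, 7.58% were higher and 7.88% lower with BBR after the control vector, and 5.28% and 7.91% with the knockdown alone. Of 13 genes of fatty acid synthesis none was called higher in any comparison of groups, although 10 had a positive log2 fold change with BBR after the control vector (median 0.32) and 11 on the knockdown background (median 0.61). Srebf1, the gene of the SREBP1 transcription factors, was lower with BBR both after the control vector (-0.57, adjusted p = 0.0444) and on the knockdown background (-0.75, adjusted p = 0.0154), and Mlxipl, the gene of ChREBP, was lower in the latter comparison (-0.36, adjusted p = 0.0413).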

How the data were processed

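Poly(A)-selected RNA from 20 livers, 1 library per liver, was sequenced by the authors, who deposited estimated counts and FPKM per gene (build mm10 per the submitters' processing notes). The aligner, counter and annotation are not given in the sources used here. Estimated counts were rounded. Groups came from the labels, which give no animal numbers, so p-values measure the spread between these libraries. Genes were kept by edgeR's filterByExpr (minimum count 10, minimum total 15), scaled by TMM (factors 0.873 to 1.14) and tested with edgeR 4.0.16 in R 4.3.3, by a quasi-likelihood test on a model of 4 group means. Adjusted p is Benjamini-Hochberg over all 12342 genes, with a threshold of 0.05, and the difference of BBR effects is an interaction contrast. Intervals are 95%. Fits were tested on simulated counts.

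Alternatives used DESeq2 1.42.0 (its test or size factors), limma 3.58.1 (voom, or log2(FPKM + 0.1)), other filters, only the groups compared, a replicate block and each library left out. Covariates for H2-K1 level and mitochondrial share were chosen after seeing the data. Replicate numbers recur across groups and were not taken to pair livers in the main fit. Of 30 same-numbered pairs, 6 correlated above 0.1 (-0.30 to 0.26). Differently numbered pairs were not computed, so this count cannot decide whether the numbers pair livers. Within each group no 2 libraries were duplicates (lowest chi-square per gene, 15.2), and pairs across groups were not compared.

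The members and lists were chosen with earlier results of these data known. Named genes are the 9 members, Pparg, for each member the 3 other genes with the highest correlation of log2 CPM (mean count at least 50), up to 4 called genes of each list by size of change, and overlapping or adjoining genes. Trib3, Ddit3, H2-K1 and further list genes beyond this rule were named after their values were seen. Positions are from GENCODE M21 on GRCm38.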

Additional observations from a re-analysis of the deposited data

Results flagged for a closer look

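In 2 of 36 groups of 5 livers tested, 1 liver lay far from the other 4 by Dixon's test, whose critical value for 5 samples is 0.71. Chance gives such a liver in about 1 in 20 groups. Fgf21 in Vec+BBR replicate 4 was at 10.98 CPM, with the nearest liver of its group at 5.42 (ratio 0.737). Ahsg in shRNA+BBR replicate 3 was at 4414.82 CPM, with the nearest at 3828 (ratio 0.773).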

How the results depend on the processing

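Ahsg, Fetub and Tsku with BBR after the control vector, and Angptl4, Inhbe and Ahsg with the knockdown, kept their direction and call under all 20 alternatives run for each. Angptl4 with BBR after the control vector was lost in 8 of 20, among them no filter on low counts (adjusted p = 0.0632), only the groups compared (0.0589) and FPKM (0.211). On FPKM the median of all genes shifted against TMM by 0.13 in Vec+BBR and by 0.11 in shRNA against Vec, and by -0.16 in the difference of BBR effects. The count of all genes called was 1178 in Vec+BBR against Vec with only the groups compared. With the mitochondrial share as a covariate it was 2648 in shRNA against Vec and 171 in shRNA+BBR against shRNA. In shRNA+BBR against Vec+BBR, 0 of the 9 genes were called on FPKM (Fst, adjusted p = 0.0854) and with H2-K1 as a covariate (0.0538). In shRNA+BBR against shRNA, 0 were called without a filter, on FPKM and with the mitochondrial share, and 2 with at least 10 counts in every liver or by DESeq2. In the difference of BBR effects, 18 genes were called by edgeR, 338 by DESeq2, 11 by voom and 34 on FPKM, and of the 9 genes 1 by DESeq2. Values near 0 changed sign. Fst with BBR after the control vector was 0.034 by voom, 0.017 with the replicate block, 0.24 on FPKM and 0.065 with the mitochondrial share, and Inhbe was 0.063 on FPKM. Angptl4 in shRNA+BBR against Vec+BBR was -0.0021 without a filter, -0.00012 by voom and -0.028 on FPKM, and there Fgf21 was 0.057 and Fetub 0.024 with H2-K1, and Gdf15 was -0.082 with the mitochondrial share. Angptl8 in shRNA+BBR against shRNA was -0.25 with that share. The cause of these changes was not tested. With the replicate block, the counts of all genes were 1747, 1495, 940, 1819 and 21 in the order of the 4 comparisons and their difference, Fgf21 was called in shRNA+BBR against shRNA (adjusted p = 0.0494) and Inhbe was not (0.0683). Leaving out 1 liver gave 1237 to 2395, 1015 to 2284, 538 to 1129, 661 to 2527 and 5 to 122 genes in the same order, and 3 to 4, 3, 0 to 1, 0 to 2 and 0 of the 9. It gave -0.21 to 0.19 for Fst with BBR after the control vector, -0.090 to 0.25 for Angptl8 in shRNA+BBR against shRNA and, in shRNA+BBR against Vec+BBR, -0.31 to 0.35 for Fgf21, -0.051 to 0.043 for Angptl4, -0.060 to 0.27 for Gdf15 and -0.092 to 0.064 for Fetub. Fgf21, Gdf15 and Fst had the fewest counts of the 9 genes, 31 to 320 per liver.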
